A study of Rattus norvegicus with 27 samples.

Results

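The comparison covers the full course of primary lung fibroblasts on soft silicone, from day 2 to day 14 in culture. It rests on 8 of the 27 RNA-seq libraries of the series: the 4 labelled PDMS day 2 and the 4 labelled PDMS day 14, chosen by their labels and by the column names of the count table. All 8 came from Sprague-Dawley rats, whose fibroblasts were sorted from lung with magnetic beads for CD90 (the surface antigen Thy-1), per the labels. The growth surface was polydimethylsiloxane (PDMS), a rubbery silicone given as 3 to 5 kPa, coated with collagen I of rat tail (38 µg/ml), and the medium was MucilAir. The labels leave the upper end of the seeding density blank, so whether density differed between the groups is not known. The groups differ in the day of harvest alone, as far as the labels say, and no agent is named for either. The column names of the count table mark all 27 libraries as monoculture and WT. The other 19 libraries are PDMS day 4 and day 7 and plastic day 4, day 7 and day 14, on the same collagen coat. The labels do not give the animal, isolation or culture behind a library, nor the age of the animals, so a p-value here speaks only of how far these libraries scatter, which may be in part technical.

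Fibroblasts make and remodel the matrix of the lung. After they are taken out of tissue and plated, they attach, spread and take up a culture phenotype over days, and a hard surface is known to drive them toward the contractile, matrix-secreting myofibroblast. PDMS is used as a softer support than tissue culture plastic. The genes are given in the files by Ensembl rat ID and are not paired there with names. No ID matched the RefSeq table used here, so genes are described by ID, level, direction and timing, no function is attached to them, and the labelled cell type was not checked against fibroblast markers.

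Totals ran from 17.3 to 22.8 M counts (M, mega) in the PDMS day 2 libraries, with a mean of 20.1 ± 2.23 M (SD, n = 4). They ran from 20.6 to 24.7 M in the PDMS day 14 libraries, with a mean of 23.5 ± 1.94 M (SD, n = 4). Levels are given as CPM, counts per M of a library's TMM-scaled size, where TMM is a scaling that takes most genes as unchanged. CPM is not divided by transcript length, so a level is a share of reads and long transcripts weigh more in it. Of 14258 genes tested, 7358 (51.6%) were called at an adjusted p under 0.05 by edgeR's quasi-likelihood test. Called genes were higher at day 14 in 3461 cases (24.3% of those tested) and lower in 3897 (27.3%).

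Which genes carried the change depended on how the change was weighed, and the split of the top 100 genes into rises and falls differed between the 2 weighings, while rises were in the majority in both top 10 lists. Weighed by reads, as the size of the difference in mean CPM, the course was led by abundant genes that rose. Weighed by fold, as the squared difference of the groups' mean log2 CPM (with a prior count of 2, which damps low counts), most of the top 100 genes fell, with a median mean level over both groups of 36.1 CPM for the 100, against 920 for the top 100 by reads and 22.6 for all tested genes. Of the 100 genes with the largest change in reads, 73 had a higher mean at day 14 and 27 a lower one. Of these 100, 69 were called higher, 24 lower and 7 were not called. Of the 100 genes with the largest log2 change, all of them called, 19 rose and 81 fell. The median level of the 81 falls was 68.6 CPM at day 2 and 1.04 at day 14, and that of the 19 rises was 0.796 CPM and 78.8. The top 10 by reads held 8 rises and 2 falls, and the top 10 by log2 held 6 rises and 4 falls. The lists shared 7 genes, 7% of each. These genes were picked for their difference between the same 8 libraries, so their directions, folds and calls are a description of where the change lay and carry no test.

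Single genes held visible parts of the change in reads. The gene with the largest change, ENSRNOG00000018991, was at 394, 769, 422 and 401 CPM in PDMS day 2 replicates 1 to 4. It was at 13250, 3550, 16360 and 8547 CPM in PDMS day 14 replicates 1 to 4. Every day 14 library lay above every day 2 library, and the day 14 libraries differed among themselves more than 4-fold between the lowest and the highest. The mean went from 496 ± 182 CPM to 10430 ± 5598 CPM (SD, n = 4 each), a log2 fold change of 4.39 ± 0.68 (SE) with an adjusted p of 3.83e-05 in edgeR's quasi-likelihood test. By level, it moved from rank 232 among the tested genes at day 2 to rank 3 at day 14, and it alone held 1.93% of the summed change in reads.

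ENSRNOG00000005695 held the next largest share, 1.77%. It stood at 318, 235, 934 and 213 CPM in PDMS day 2 replicates 1 to 4, and at 6829, 9675, 11380 and 10310 CPM in PDMS day 14 replicates 1 to 4. Replicate 3 was the highest library of its group at both days, and the groups did not overlap. The mean rose from 425 ± 343 to 9549 ± 1945 CPM (SD, n = 4 each), with a log2 fold change of 4.49 ± 1.06 (SE) and an adjusted p of 0.0015 in edgeR's test. Without PDMS day 2 replicate 3 the log2 fold change was 5.22. Its level moved from rank 302 to rank 4.

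The largest loss of reads among called genes was that of ENSRNOG00000005825, at 0.841% of the summed change, with ENSRNOG00000001414 next. ENSRNOG00000005825 was at 9151, 2241, 4835 and 1486 CPM in PDMS day 2 replicates 1 to 4. It was at 42.8, 44.1, 297 and 6.15 CPM in PDMS day 14 replicates 1 to 4, so every day 2 library lay above every day 14 library. Its mean fell from 4428 ± 3460 to 97.5 ± 134 CPM (SD, n = 4 each), a log2 fold change of -5.51 ± 1.37 (SE) with an adjusted p of 0.00219 in edgeR's test. Without PDMS day 14 replicate 3 the log2 fold change was -7.16, and without PDMS day 2 replicate 1 it was -4.87. It went from rank 4 by level at day 2 to rank 2276 at day 14, and it ranked 7 by change in reads and 36 by squared log2 change.

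ENSRNOG00000001414 had the rank 3 level at day 2 and rank 101 at day 14. Its values were 1553, 4184, 7281 and 8255 CPM in PDMS day 2 replicates 1 to 4, against 1028, 2000, 457 and 784 CPM in PDMS day 14 replicates 1 to 4. Here the groups overlapped, since day 2 replicate 1 lay below day 14 replicate 2. The mean fell from 5318 ± 3052 to 1067 ± 664 CPM (SD, n = 4 each), with a log2 fold change of -2.32 ± 0.52 (SE) and an adjusted p of 0.000947 in edgeR's test. It held 0.825% of the change in reads and ranked 1806 by squared log2 change.

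**Figure D1:**
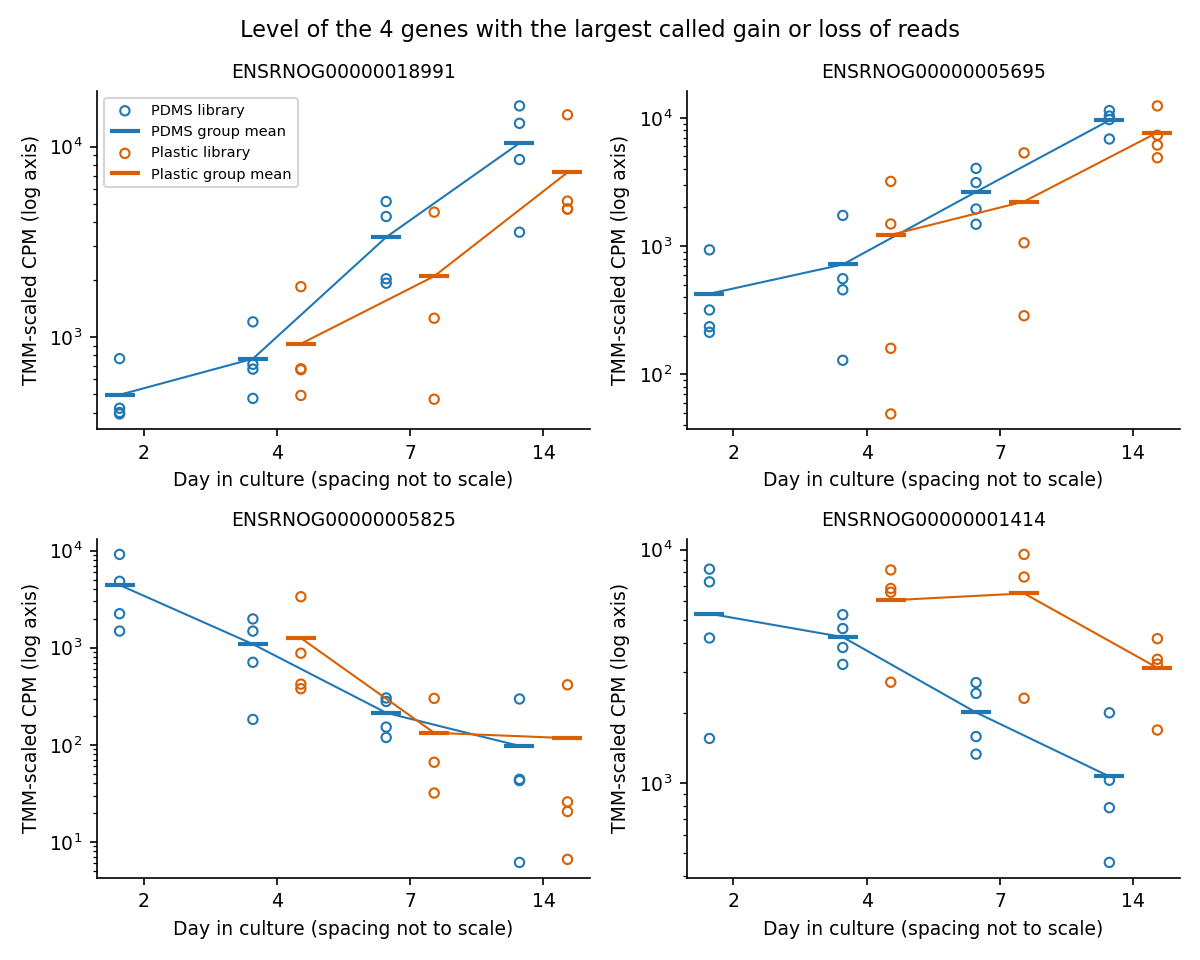
Level of the 4 genes in each library, in CPM on a log axis, by day in culture. Points are libraries and bars group means, with PDMS and plastic in separate colours, and the days are drawn at equal steps. The groups PDMS day 2 and PDMS day 14 are apart for 3 of the 4 genes and overlap for ENSRNOG00000001414.

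None of the 4 genes passed the test in a single PDMS step (day 4 against 2, day 7 against 4, or day 14 against 7). Their adjusted p over the 12 step tests ran from 0.0936 to 0.698 in edgeR's quasi-likelihood test. Few genes passed in these steps. Of all tested genes, 5.17% were called higher and 4.85% lower from day 2 to 4. These shares were 0% and 0.147% from day 4 to 7, and 2.92% and 2.60% from day 7 to 14. The lack of a call in a step therefore does not set the 4 genes apart. ENSRNOG00000018991 had means of 768 ± 307 CPM at PDMS day 4 and 3343 ± 1626 at PDMS day 7 (SD, n = 4 each), between its day 2 and day 14 means. ENSRNOG00000005825 had means of 1089 ± 800 and 214 ± 91.6 CPM at these days (SD, n = 4 each). All 4 genes had means in order of the day.

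Past these 4 genes the change was spread over many. The top 10 genes held 12.9% of the summed change in reads, the top 50 held 26.7%, the top 100 held 34.1% and the top 500 held 56.8%. It took 319 genes, 2.24% of those tested, to reach 50% of it. The level of the genes itself is uneven, and for comparison the 10 most abundant genes held 5.65% of all reads, the 100 most abundant held 20.4%, and 866 genes held 50%. On the log2 scale the change was spread more widely: the top 10 genes held 1.58% of the summed squared change, the top 100 held 11.3%, and 733 genes (5.14%) were needed for 50%. To reach 80%, 2054 genes were needed by reads and 2115 by squared log2 change.

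**Figure D2:**
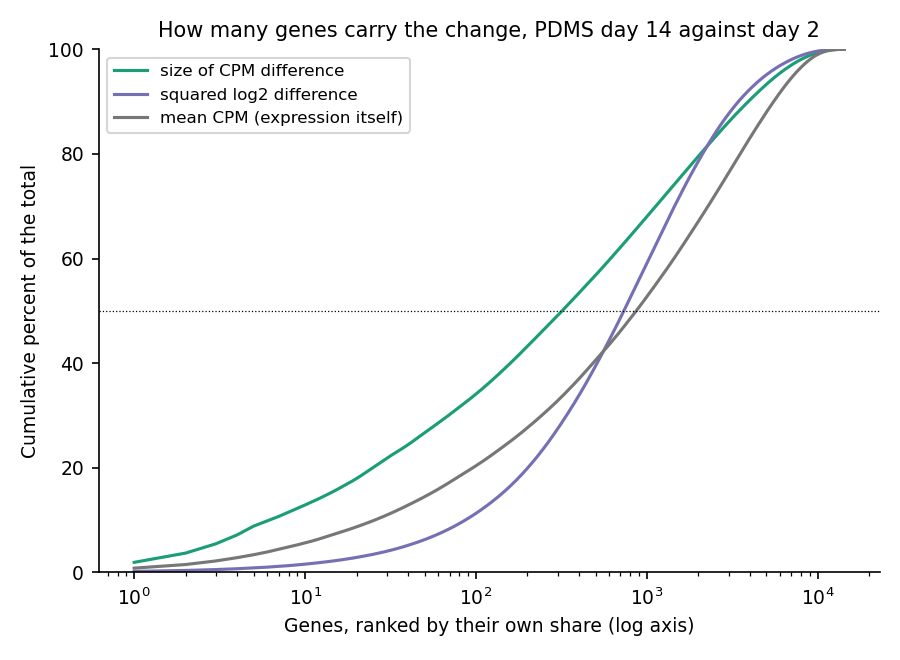
Cumulative percent of the summed change against the number of genes, ranked from the largest, for the change in reads, the squared log2 change and, for reference, the reads themselves. The curve of the change in reads reaches 50% at 319 genes, before that of the squared log2 change at 733 and that of the reads at 866.

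Gains lay in fewer genes than losses: 120 genes held 50% of the reads gained and 272 held 50% of the reads lost. Summed over tested genes, CPM totals rose by 309050 in the genes that gained and fell by 205970 in the genes that lost, so that gains made 60.0% of the sum of both. This balance depends on the scaling. With plain library size in place of TMM, gains and losses are equal by construction, 26.6% of the reads changed gene, and the top 100 by reads were 67 rising and 33 falling genes, of which 94 were also among the top 100 under TMM. The split of the called genes moved likewise, with 47.04% of calls rising under TMM and 35.95% under library size, and the median log2 fold change of all tested genes went from -0.05 to -0.20.

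Genes that passed the test held 84.4% of the change in reads and 94.1% of the squared log2 change. Those called higher held 51.9% of the change in reads and 30.6% of the squared log2 change. Those called lower held 32.5% and 63.5%. The 3984 genes called with a change of more than 2-fold, 1819 higher and 2165 lower, held 62.9% by reads and 90.4% by log2. Among genes that did not pass, 579 had a fitted change of more than 2-fold and 101 of more than 4-fold.

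The share of falls among called genes was larger in each larger class of fitted fold. Above 4-fold, 777 genes rose and 1485 fell. Above 8-fold the counts were 358 and 1095, above 16-fold 148 and 782, and above 32-fold 62 and 481. Many of these genes were near the floor of detection in the lower group. A second count took the ratio of group means, each held at a floor of 3 counts summed over the 4 libraries. By that ratio, 134 of all called genes rose and 760 fell more than 16-fold. These need not all be among the 148 and 782. Of the 782 falls, 60 were listed at 0 in all PDMS day 14 libraries, 471 had at least 5 CPM at day 2 and 157 had at least 50 CPM. Of the 148 rises, 14 were listed at 0 at day 2, 95 had at least 5 CPM at day 14 and 47 at least 50 CPM. A change from under 0.5 CPM in all 4 libraries of one group to at least 5 CPM in all 4 of the other was seen in 4 genes that rose and 6 that fell. In bulk libraries such as these, fewer cells of a type and less RNA per cell cannot be told apart.

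**Figure D3:**
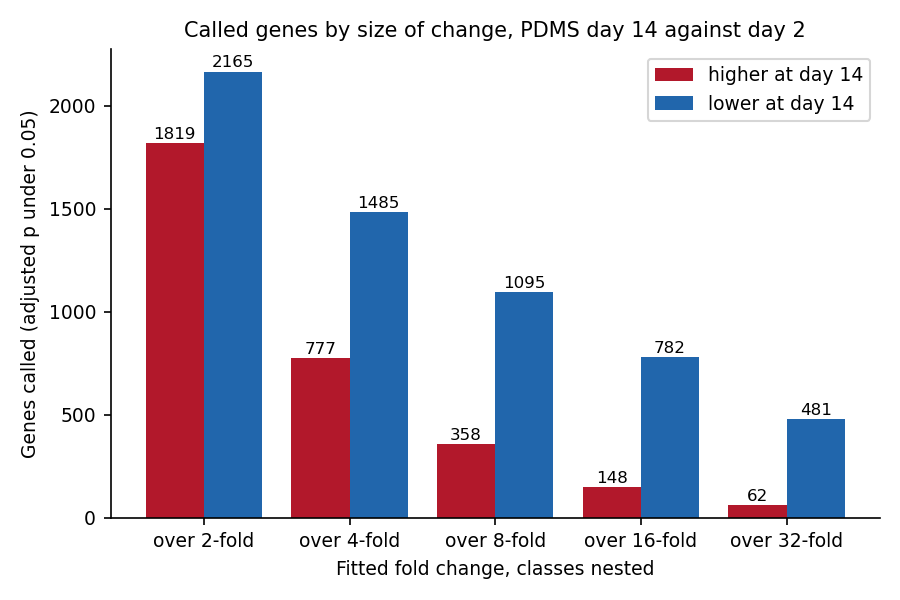
Number of genes called higher and lower at PDMS day 14 against PDMS day 2 above each fold (nested classes, from 2-fold to 32-fold). Rises go from 1819 to 62 genes and falls from 2165 to 481.

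Genes past 16-fold carried like shares of the change in reads in both directions, 7.62% for the 148 rises and 7.61% for the 782 falls, but 8.63% and 44.6% of the squared log2 change. The 10 called rises with the largest gain in CPM went from means of 338 to 3664 CPM at day 2 to means of 3214 to 12350 CPM at day 14. They held 12.3% of the change in reads, with log2 fold changes of 1.68 to 4.49, and all 10 had groups that did not overlap, as 5704 of the tested genes did (40%). The 10 called falls with the largest loss went from 1953 to 5318 CPM to 54.8 to 1514 CPM and held 5.25%. Of these 10, 4 had groups that did not overlap, the same share as the 40% of all tested genes. The 10 called rises with the largest fold, among genes without overlap and with at least 5 CPM in the higher group, held 0.455% of the change in reads. The 10 such falls held 0.0265%: they were at 5.18 to 40.8 CPM at day 2 and at 0 to 0.101 CPM at day 14.

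Sorted by level, the abundant genes held most of the change in reads, and the rest of the table held most of the change in fold. The 2180 genes with a mean of at least 100 CPM over both groups held 73.5% of the change in reads, 69.0% of the reads and 11.9% of the squared log2 change. The 4902 genes under 10 CPM held 2.19%, 1.53% and 47.5%. The 7176 genes from 10 to 100 CPM held 24.3%, 29.4% and 40.6%. Past 1000 CPM there were 88 genes, and they held 27.3% of the change in reads against 19.2% of the reads. Of these 88, 50 were called (56.8%), 30 higher and 20 lower, near the 51.6% called over all tested genes.

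**Figure D4:**
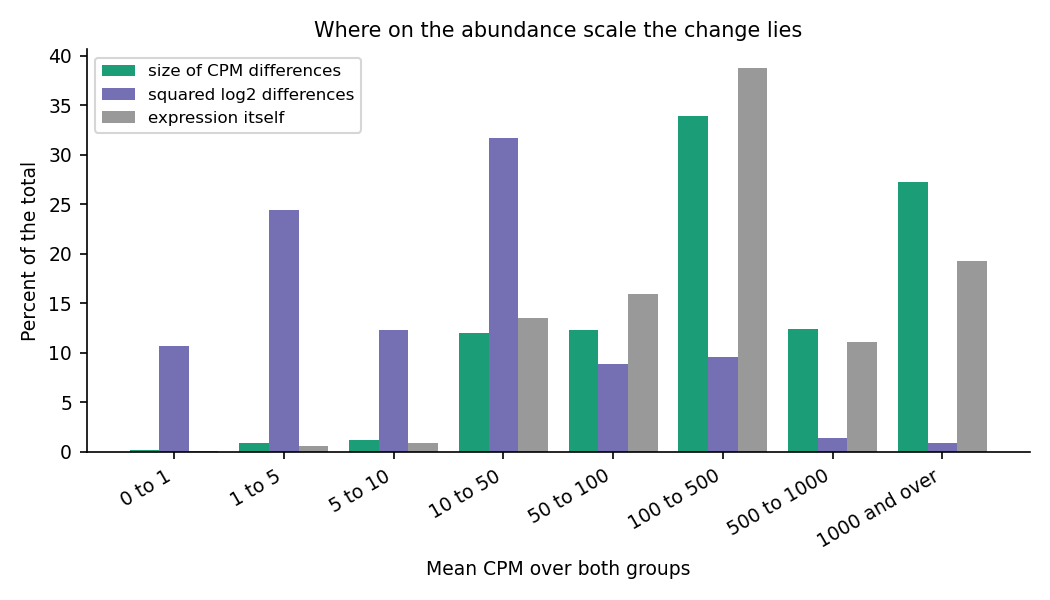
Percent of the summed change held by genes of each class of mean level (CPM over both groups), for the change in reads, the squared log2 change and the reads themselves. Genes of 1000 CPM and more hold 27.3% of the change in reads and 0.939% of the squared log2 change.

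The spread between libraries set against this change was large at day 2. The distance between 2 libraries, 50% of the summed size of the CPM differences over all genes, given as a percent of 1 M CPM, was 28.5 on average (22.4 to 34.4) over the 16 pairs of a day 2 and a day 14 library. It was 18.02 (12.5 to 23.9) over the 6 pairs within PDMS day 2 and 12.6 (10.1 to 15.3) over the 6 pairs within PDMS day 14. The mean between groups exceeded the mean within them by 13.2. An exact permutation test over the 70 assignments of 4 against 4 libraries gave p = 0.0286, the smallest it allows. The median over genes of the SD of log2 CPM was 0.40 at PDMS day 2 and 0.26 at PDMS day 14.

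The 4 day 2 libraries did not lie at the same distance from day 14. Replicate 4 was the nearest, at 22.4 to 27.01 from the day 14 libraries, and replicate 1 the farthest, at 32.8 to 34.4. Day 2 replicates 1 and 4 were 23.9 apart, more than the 22.4 between replicate 4 and its nearest day 14 library. Of the 782 genes that fell more than 16-fold, 426 (54.5%) were highest in day 2 replicate 1 and 7 (0.895%) in replicate 4, against 21.3% and 33.1% of all tested genes. Of the 148 genes that rose more than 16-fold, 83 (56.1%) had their highest day 2 value in replicate 4. At day 14, replicate 3 was the highest library for 423 (54.1%) of the 782 falling genes, against 29.85% of all tested genes. What sets these libraries apart was not tested, and the labels give no more than a replicate number. Without day 2 replicate 4, the count of called rises above 16-fold went from 148 to 237.

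The reads summed over each set of leading genes at the days between follow. The values are percents of a library's reads by plain library size. The 73 rising genes of the top 100 by reads took 3.43%, 4.28%, 5.57% and 7.32% of the reads in PDMS day 2 replicates 1 to 4, the lowest in replicate 1 and the highest in replicate 4. At PDMS day 14 they took 16.6% to 18.7%. Between these ends, the means were 9.58% ± 1.72 at PDMS day 4 and 11.9% ± 1.41 at PDMS day 7 (SD, n = 4 each). That is 36.0% and 54.6% of the way from the day 2 mean to the day 14 mean. Values of the day 4 and day 7 libraries did not enter the differences that ranked the genes. The filter and the TMM scaling, however, were set on all 27 libraries. The 27 falling genes took 9.53%, 5.20%, 8.96% and 4.78% of the reads in PDMS day 2 replicates 1 to 4, and 2.12% ± 0.10 at PDMS day 14 (SD, n = 4). Their means were 4.09% ± 0.57 at day 4 and 2.72% ± 0.23 at day 7 (SD, n = 4 each), 60.6% and 88.1% of the way.

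Among the genes past 16-fold, the 782 falling genes took 7.75%, 3.30%, 5.17% and 1.23% of the reads in PDMS day 2 replicates 1 to 4, a more than 6-fold range, and 0.114% ± 0.105 at day 14 (SD, n = 4). By day 4 they were at 1.08% ± 0.37 and by day 7 at 0.239% ± 0.095 (SD, n = 4 each), 77.2% and 97.1% of the way. The 148 rising genes took 0.165% ± 0.037 at day 2, 0.524% ± 0.258 at day 4, 1.37% ± 0.37 at day 7 and 3.97% ± 0.93 at day 14 (SD, n = 4 each), with 9.45% of the way covered by day 4 and 31.7% by day 7. A summed percent is set by the most abundant genes of a set, and gene by gene on the log2 scale the order was not the same. The median log2 change per gene in the steps from day 2 to 4, 4 to 7 and 7 to 14 was 2.38, 1.19 and 1.48 for the 148 rises, and -2.02, -2.24 and -0.99 for the 782 falls. For the 73 rising genes of the top 100 by reads these medians were 1.22, 0.47 and 0.74, and for the 27 falling genes -1.04, -0.93 and -0.52. A difference in timing between falls and rises was not tested. From day 2 to 4 its direction depended on the scale. Falls had covered more of the way by summed reads, and rises had the larger median log2 change. From day 7 to 14 the rises moved more than the falls on both scales. By day 7, however, the 782 falls had covered 97.1% of the way by summed reads. Their median level at day 14 was 0.188 CPM, so they had little room left to fall.

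**Figure D5:**
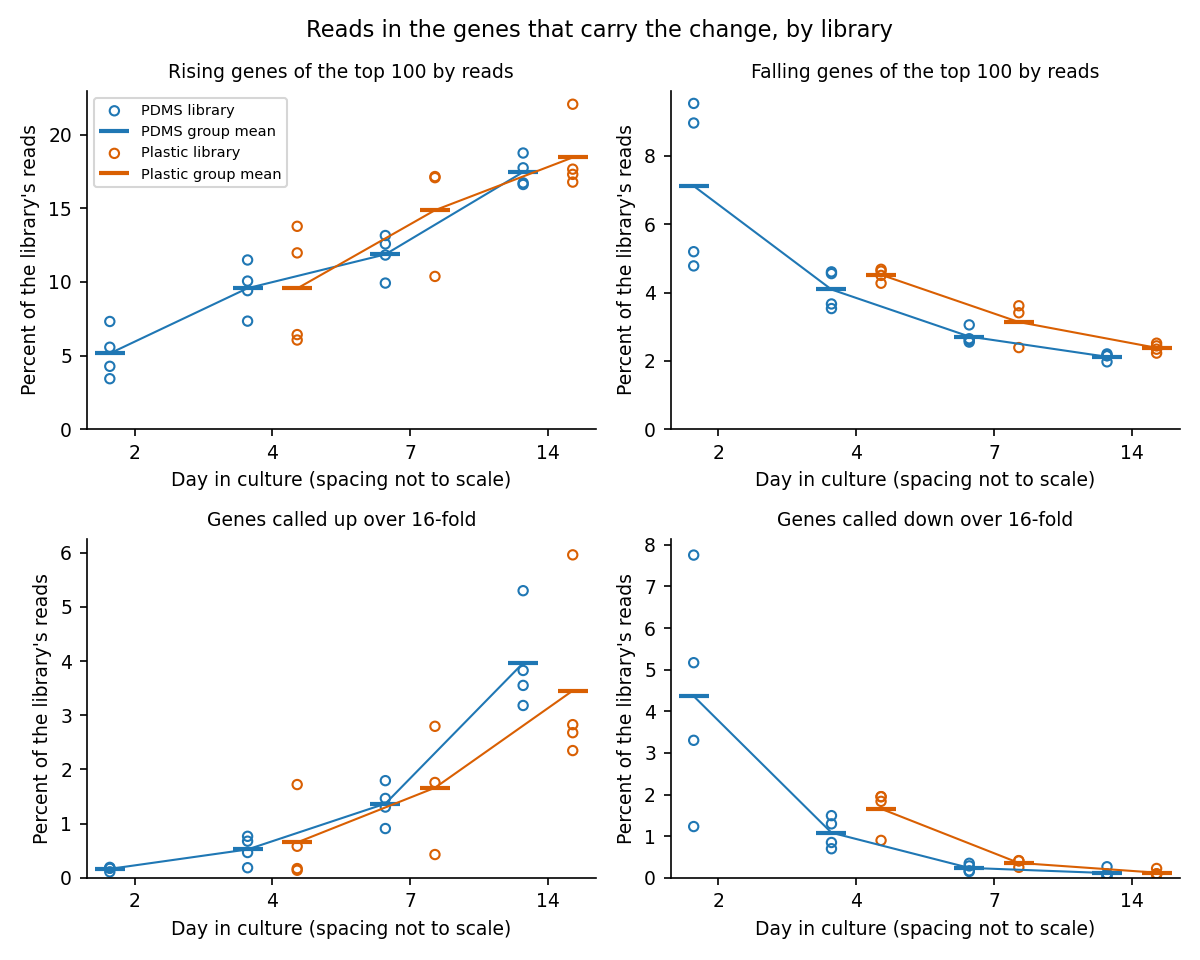
Percent of each library's reads in 4 gene sets by day in culture: the 73 rising and 27 falling genes of the top 100 by reads, and the 148 rising and 782 falling genes called above 16-fold. Points are libraries and bars group means on PDMS and plastic, with days at equal steps, and the sets were chosen on PDMS day 2 and PDMS day 14, whose points are therefore apart by choice.

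The top 100 by reads was also chosen on 7 libraries at a time, with the eighth left out of the ranking but not of the filter and scaling. Of these lists, 88 to 96 genes were in the list from all 8. In the library left out, the rising genes took 3.35% to 8.81% of the reads where it was a day 2 library and 15.2% to 18.5% where it was a day 14 library. The falling genes took 5.00% to 8.79% and 2.22% to 2.72%. The other libraries of both groups took part in each choice, so these readings are a description. The number of rising genes among the top 100 by reads was 63 to 76 with 1 library left out, and the number of falling genes among the top 100 by log2 was 72 to 89.

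The plastic libraries were compared at day 14 against day 4, since they start at a later day. Their values did not enter the differences that ranked the top 100 lists, but the filter and the TMM scaling were set on all 27 libraries. The calls on PDMS, however, came from the fit of all 27 libraries, so the plastic libraries helped set the spread used for calls on both substrates. Shared calls are therefore a description and not an independent reading. On plastic 2038 of the tested genes (14.3%) were called higher and 2603 (18.3%) lower in edgeR's quasi-likelihood test. The sum of these, 4641, was 3076 without plastic day 4 replicate 2. Of the 73 rising genes of the top 100 by reads, 40 (54.8%) were called higher on plastic, 0 were called lower, and 71 had a higher mean. Of the 27 falling genes, 9 (33.3%) were called lower and 1 higher. Of the 81 falling genes of the top 100 by log2, 73 (90.1%) were called lower, and of the 19 rising genes 8 (42.1%) were called higher. Of the genes past 16-fold on PDMS, 83 of the 148 rises (56.1%) and 520 of the 782 falls (66.5%) were called in the same direction. Of all genes called on PDMS, 1582 of the 3461 rises were also called higher on plastic and 4 lower, and 2084 of the 3897 falls were also called lower and 7 higher.

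Of the 4 genes given by ID, 3 passed on plastic as well. ENSRNOG00000018991 had a log2 fold change of 2.99 ± 0.64 (SE) there, with an adjusted p of 0.00182 in edgeR's test. ENSRNOG00000005695 had 2.65 ± 0.98 with an adjusted p of 0.0414 (edgeR), and ENSRNOG00000005825 had -3.43 ± 1.24 with an adjusted p of 0.0386 (edgeR). The plastic groups did not overlap for ENSRNOG00000018991 and ENSRNOG00000005695, though the latter ran from 49.2 to 3190 CPM within plastic day 4. They overlapped for ENSRNOG00000005825, at 379 to 3355 CPM at plastic day 4 and 6.61 to 416 CPM at plastic day 14. ENSRNOG00000001414 had -0.96 ± 0.50 with an adjusted p of 0.139 (edgeR) and stayed at 3118 ± 1035 CPM at plastic day 14 (SD, n = 4). The difference between the substrates in these courses was not tested, since their first days differ.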

How the data were processed

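Gene expression was measured by RNA-seq. The deposited values used here are the authors' raw counts, whole numbers for each Ensembl rat gene ID with a column for every library. FastQC 0.11.2, Cufflinks 2.2.1, STAR and DESeq2 are named per the submitters' processing notes, and bamUtil 1.0.11 and dupRadar 1.4 (duplicate reads) per the series design text. Counting program, strand setting, build and annotation: not given in the sources used here. Overlapping, antisense or near-identical genes may therefore share or split reads. Per the labels' protocols, a TruSeq kit was used on 200 ng of RNA. The table has 28 columns, and the 1 that matches no listed sample was left out. Deposited depth-scaled and variance-stabilized tables were not used here.

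The 32753 IDs (11756 without a read) were filtered with edgeR 4.0.16 in R 4.3.3 by filterByExpr (minimum count 10, minimum total 15, smallest group 3), and 14258 were tested. All 27 libraries entered 1 quasi-likelihood model with a mean for each of 7 groups and TMM scaling, which left 20 residual degrees of freedom. The biological coefficient of variation had a median of 0.243. F tests were two-sided, with Benjamini-Hochberg adjustment over all tested genes and a threshold of 0.05. The SE was obtained by dividing the size of the log2 fold change by the root of F. The fit was also run on simulated counts in which a small part of the genes differed. In the data 51.6% of the genes were called, so that run does not show how the fit performs here.

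The members, lists and tests were chosen with earlier results of these data known. As 0 of the 32753 IDs matched the RefSeq table (GRCr8), 39 lists of symbols, cell type markers among them, were not used. The rule for genes to name then gave 4 IDs: the 2 called rises and the 2 called falls with the largest difference in mean CPM. Alternatives were library-size scaling, DESeq2 1.42.0, limma 3.58.1 (voom), no filter or a stricter one, a fit of the 8 libraries alone, a replicate block, and each library left out. Counts above 16-fold and plastic counts under these alternatives, and the floor of 3 counts, were added after seeing the data.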

Additional observations from a re-analysis of the deposited data

Results flagged for a closer look

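Groups of 4 libraries were checked, measure by measure, for a library that stands apart by Dixon's criterion. Of 22 such checks, chance alone would mark about 1.1 if they were independent, and 5 were marked. The checks share libraries, and some use genes picked from these same libraries, so the 1.1 is only a rough guide. ENSRNOG00000018991 was at 769 CPM in PDMS day 2 replicate 2, against 394 to 422 in the other day 2 libraries. ENSRNOG00000005695 was at 934 CPM in PDMS day 2 replicate 3, against 213 to 318 in the others. ENSRNOG00000005825 was at 297 CPM in PDMS day 14 replicate 3, against 6.15 to 44.1 in the others. The 19 rising genes of the top 100 by log2 took 0.0219% of the reads in PDMS day 2 replicate 4, against 0.00508% to 0.00756% in the others. PDMS day 14 replicate 3 had a total of 20570000 counts, against 24190000 to 24690000 in the others. Whether these libraries differ for a technical reason was not tested.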

How the results depend on the processing

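The count of called genes was 7358 and ran from 6496 to 7245 with 1 library left out. It was 7500 with library-size scaling, 7806 with DESeq2, 7270 with voom, 7492 without a filter, 6953 with a stricter filter and 5673 in a fit of the 8 libraries alone. Same-numbered libraries of the 2 groups had deviations correlated at -0.13, -0.05, 0.28 and 0.24, and what the number marks was not shown. Day 2 replicates 3 and 4, but not 1 and 2, correlated best with the day 14 library of their own number. Day 14 replicate 3 correlated better with day 2 replicate 1 (0.40) than with day 2 replicate 3 (0.28). With the replicate block the count was 4652 in the fit of the 8 libraries alone and 7511 in that of all 27. ENSRNOG00000001414 then had an adjusted p of 0.0649 (edgeR, 8 libraries), against 0.0044 or less with 1 library left out. The 4 IDs otherwise passed in all 16 alternatives. The log2 fold change of ENSRNOG00000005825 was -6.38 with the block in the 8 libraries and -6.35 with voom, against -5.51.

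The share of the change in reads held by the top 100 genes was 32.8% with library size, against 34.1%, and 33.6% to 34.7% with 1 library left out. The top 100 by log2 held 10.9% to 12.4% of the squared change with 1 library left out, against 11.3%. Called rises above 16-fold numbered 133 to 237 with 1 library left out, the highest without PDMS day 2 replicate 4, and falls 677 to 881. Called changes above 2-fold numbered 3548 to 4192. On plastic, called genes numbered 3076 without Plastic day 4 replicate 2 and up to 5316, against 4641 with all libraries. A fit without mitochondrial genes was not run, since IDs were not paired with names. Depth limits the folds of genes near the floor of 3 counts. The log2 prior count damps them.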
